A study of Mus musculus with 4 samples.

Results

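Cells rich in both Ly6a and Spp1 messages were examined in 1 of 4 single-cell libraries, made from C3H10T1/2 cells that carried a wild-type histone transgene and had been exposed to 5-Azacitidine. A cell was a member when it had at least 10 UMIs of Ly6a and at least 10 UMIs of Spp1, a UMI being 1 tagged RNA molecule. Of 5993 cells that passed the cell filter in the H3WT 5-Aza library, 541 were in this gate, among 22049 such cells and 39891 barcodes in the series. C3H10T1/2 is an established line of mouse mesenchymal progenitors (clone 8) that can form muscle, fat and cartilage cells after 5-Azacitidine (5-Aza), an inhibitor of DNA methyltransferases. The 4 libraries were H3WT or H3R26C cells, given DMSO or 5-Aza, and all of these cells carried a lentiviral H3.1 transgene, wild type or with cysteine in place of arginine 26, under puromycin selection. The 5-Aza cells received 3 µM for 24 h and were collected on day 28, while the day of collection of the DMSO cells is not given in the sources used here. Each condition had 1 library, so no difference between libraries or cell groups was tested, cells are not replicates, and every interval covers counting error only.

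Ly6a encodes Sca-1, a GPI-anchored surface protein of the Ly6 family that marks mesenchymal and hematopoietic progenitors. Spp1 encodes osteopontin, a secreted phosphoprotein of bone matrix that binds integrins and CD44 and is also made by proliferating and wound-associated stromal cells. Mgp, which encodes an inhibitor of matrix mineralization, and Ifi27l2a, an interferon-induced gene, were the further markers proposed for these cells.

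The gate used raw UMIs, so it favoured cells with more RNA counted. Gated cells had a median of 18136 UMIs and 4651 genes. The 2995 cells of the same library with at most 1 UMI of Spp1, called Spp1-low here, had medians of 12067 UMIs and 3707 genes. The library held 93489599 UMIs in all, 10141157 of them in gated cells. Spp1 ran from 10 to 415 UMIs per gated cell with a median of 23, and Ly6a from 10 to 143 with a median of 21. The cells were chosen by these UMI counts of Ly6a and Spp1, which are therefore given as a description. Just inside the Spp1 limit, 64 Ly6a-rich cells had 10 or 11 UMIs of Spp1 and a median of 644 CPM (UMIs of the gene scaled to 1e6 UMIs of the cell or group). Just outside, 86 such cells had 8 or 9 UMIs and a median of 533 CPM. At the Ly6a limit, 71 Spp1-rich cells had 10 or 11 UMIs of Ly6a and 76 had 8 or 9. The boundary therefore ran through a continuous range of cells. Only 12 of the 541 gated barcodes were also kept in another library.

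The gate held 9.03% of H3WT 5-Aza cells (exact binomial interval 8.31% to 9.78%). It held 41.9% of H3R26C 5-Aza cells (3192 of 7619), 5.98% of H3WT DMSO cells (222 of 3710) and 7.81% of H3R26C DMSO cells (369 of 4727). H3R26C 5-Aza was thus 4.64 times as high as H3WT 5-Aza, with counting bounds of 4.17 and 5.17. After each cell was thinned to 5000 UMIs and the gate set to 4 UMIs of each gene, the shares were 7.49% in H3WT 5-Aza, 41.3% in H3R26C 5-Aza, 2.10% in H3WT DMSO and 4.17% in H3R26C DMSO. Medians of all kept cells were 13149, 13123, 22420 and 16598 UMIs in the same order. Thinning and the lower limit changed together, so their parts in these shares were not told apart.

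Ly6a-rich cells were no more frequent among Spp1-rich cells of the H3WT 5-Aza library than among its Spp1-low cells. Of 1654 cells with at least 10 UMIs of Spp1, 32.7% also reached 10 UMIs of Ly6a, against 47.2% of the Spp1-low cells. After thinning the shares were 28.03% and 49.5%. The H3R26C 5-Aza library had the same order, 57.1% against 70.3%, and 55.8% against 74.2% after thinning. In both DMSO libraries the order was the opposite as counted (42.1% against 32.4% for H3WT, 46.7% against 33.7% for H3R26C), but not after thinning (22.7% against 25.2%, and 28.7% against 30.6%). The level of free Spp1 RNA was not measured directly. Of 6607 barcodes under 1000 UMIs, with a median of 630, 16.6% had a UMI of Spp1 and 25.03% one of Ly6a in H3WT 5-Aza. In H3R26C 5-Aza 74.4% of 2297 such barcodes, with a median of 668 UMIs, had a UMI of Spp1, at a median of 1754 CPM, and 41.1% had one of Ly6a. These barcodes thus held more Spp1 in the library with the larger gate share, and the part of free RNA in the shares of the 2 libraries was not tested. Among 345 cells with skeletal muscle markers (median 15605 UMIs) 55.4% had one, but the upper quartile of its count was 10 UMIs and the highest count was 486, so they did not serve as cells without Spp1. In H3R26C 5-Aza 96.8% of 436 such cells had a UMI of Spp1, with a median count of 28.

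**Figure D1:**
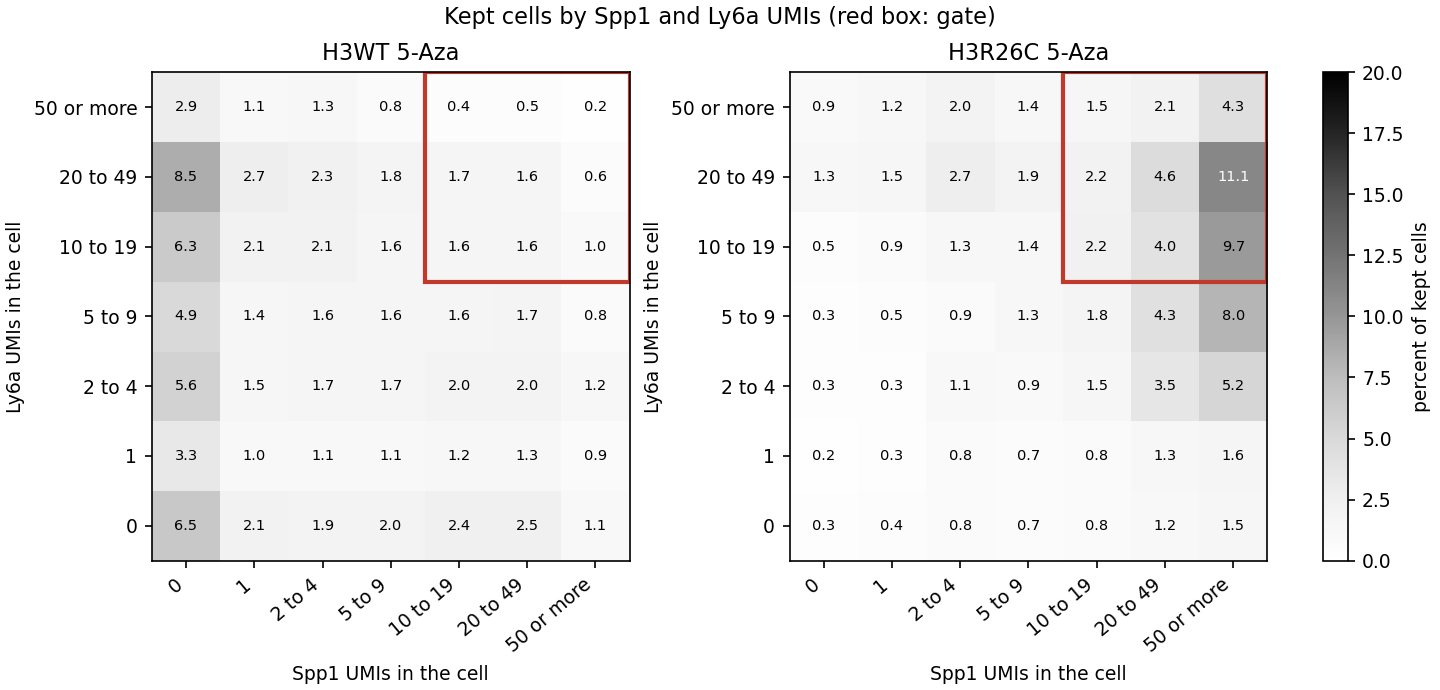
Percent of kept cells in each class of Spp1 UMIs (horizontal) and Ly6a UMIs (vertical) in the H3WT 5-Aza and H3R26C 5-Aza libraries, with the gate in red. The gate holds 9.03% of H3WT and 41.9% of H3R26C cells, and in H3WT the fullest classes of Ly6a-rich cells are those at 0 UMIs of Spp1.

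Tinagl1, Hmga1, Grem1, Timp1 and Lgals3 were higher in gated than in Spp1-low H3WT 5-Aza cells, and Eln, Mfap5, Smoc2 and Pi16 were lower. At least 20 CPM in either group was asked of a gene, and at least 2-fold, on CPM plus 1, counted as higher or lower. Among 6715 genes compared, 126 were higher (1.88%) and 88 were lower (1.31%), with a median log2 ratio of 0.03 over all of them. Depth, the share of cycling cells and the share of muscle-marker cells also differed between the groups, so 5 further references were used. These were Spp1-low cells that also had at least 10 UMIs of Ly6a, Spp1-low cells weighted to the depth of the gated cells, both groups without cycling cells, a weighted reference without cycling cells and without cells that had 3 muscle or 3 adipocyte markers at 5 or more UMIs each (404 gated and 2656 Spp1-low cells left), and the gate set after thinning. Against the Ly6a-rich Spp1-low reference alone, 114 of 6638 genes were higher (1.72%) and 40 were lower (0.603%). With depth weighting alone 50 genes were higher and 143 lower.

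Under all 6 references 20 genes were at least 2-fold higher and 10 at least 2-fold lower. They were picked for this after their values were seen, so their number is a description. Some of the 20, such as Tinagl1 and Hmga1, were under 20 CPM in Spp1-low cells and could only be higher than these. Some of the 10 were likewise under 20 CPM in gated cells and could only be lower. Tinagl1, a secreted matricellular protein, stood at 52.5 CPM in gated and 8.50 CPM in Spp1-low cells, a log2 ratio of 2.49 (interval 2.42 to 2.83, computed without the added 1 CPM). In H3R26C 5-Aza it stood at 58.8 and 9.85 CPM, in H3WT DMSO at 40.2 and 3.89, and in H3R26C DMSO at 30.2 and 2.84. All 4 libraries thus had more Tinagl1 in the gate. Grem1, a secreted antagonist of bone morphogenetic proteins, stood at 167 and 35.2 CPM in H3WT 5-Aza, at 132 and 63.1 in H3R26C 5-Aza, at 194 and 22.01 in H3WT DMSO and at 202 and 38.7 in H3R26C DMSO. Its ratio was smallest in H3R26C 5-Aza, 1.05 on the log2 scale against 2.21 in H3WT 5-Aza. Timp1, an inhibitor of metalloproteinases, stood at 241 and 85.9 CPM (log2 ratio 1.48). Cst6, a cystatin, stood at 45.6 and 8.73 CPM, and Lxn, an inhibitor of carboxypeptidases, at 135 and 52.5 CPM.

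Others of the 20 were Plaur, the urokinase receptor (27.6 and 5.86 CPM), Sema3a, a secreted guidance protein (30.4 and 12.8 CPM), and Penk, the enkephalin precursor (48.9 and 17.8 CPM). Lgals3, which encodes the lectin galectin-3, stood at 606 and 235 CPM. Cda, an enzyme of pyrimidine salvage that deaminates cytidine, stood at 46.0 and 10.8 CPM. Ndufa4l2 and Car9, both known as hypoxia-induced genes, stood at 89.4 against 27.3 CPM and at 66.1 against 24.5 CPM. In the DMSO libraries Ndufa4l2 was under 1 CPM in every group. Hmga1, an architectural protein that binds AT-rich DNA, stood at 57.1 and 10.7 CPM in H3WT 5-Aza, at 116 and 18.6 in H3R26C 5-Aza, at 126 and 9.74 in H3WT DMSO and at 196 and 13.2 in H3R26C DMSO. Its gated cells were above its Spp1-low cells in all 4 libraries. Within the H3WT 5-Aza gate Hmga1 was uneven, at 14.6 CPM in the 136 cells lowest in Spp1 and 114 CPM in the 135 highest. Along Ly6a it stood at 112 CPM in the 136 lowest and 25.7 CPM in the 135 highest. Over all genes compared, 2.58% were at least 2-fold higher in H3R26C 5-Aza, 5.04% in H3WT DMSO and 6.57% in H3R26C DMSO. Of the 20 genes, 16 were also at least 2-fold higher in H3R26C 5-Aza, 18 in H3WT DMSO and 15 in H3R26C DMSO. Col8a1, a short-chain collagen, and Ramp2, a receptor partner, were among those that were not, with log2 ratios of 0.65 and 0.35 in H3R26C 5-Aza. Both pointed the other way in H3R26C DMSO, at -1.48 and -0.88.

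The 10 lower genes held 2 of the elastic fibre: Eln, its elastin core, at 204 and 737 CPM (log2 ratio -1.85), and Mfap5, a microfibril glycoprotein, at 134 and 336 CPM (-1.32). Pi16, known from adventitial-type progenitor fibroblasts, stood at 50.8 and 177 CPM, and Smoc2, a secreted calcium-binding matricellular protein, at 242 and 791 CPM. The imprinted RNA H19 stood at 43.5 and 163 CPM and the growth factor binding protein Igfbp2 at 21.3 and 46.7 CPM. The log2 ratio of H19 was -1.88, but -2.54 with depth weighting and -1.02 in the weighted reference without cycling, muscle-marker and adipocyte-marker cells. Of the 10, 8 were at least 2-fold lower in H3R26C 5-Aza and 9 in each DMSO library. Over all genes compared, 2.75% were lower in H3R26C 5-Aza, 2.16% in H3WT DMSO and 5.09% in H3R26C DMSO. Igfbp2 pointed the other way in H3R26C 5-Aza, with a log2 ratio of 0.93.

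**Figure D2:**
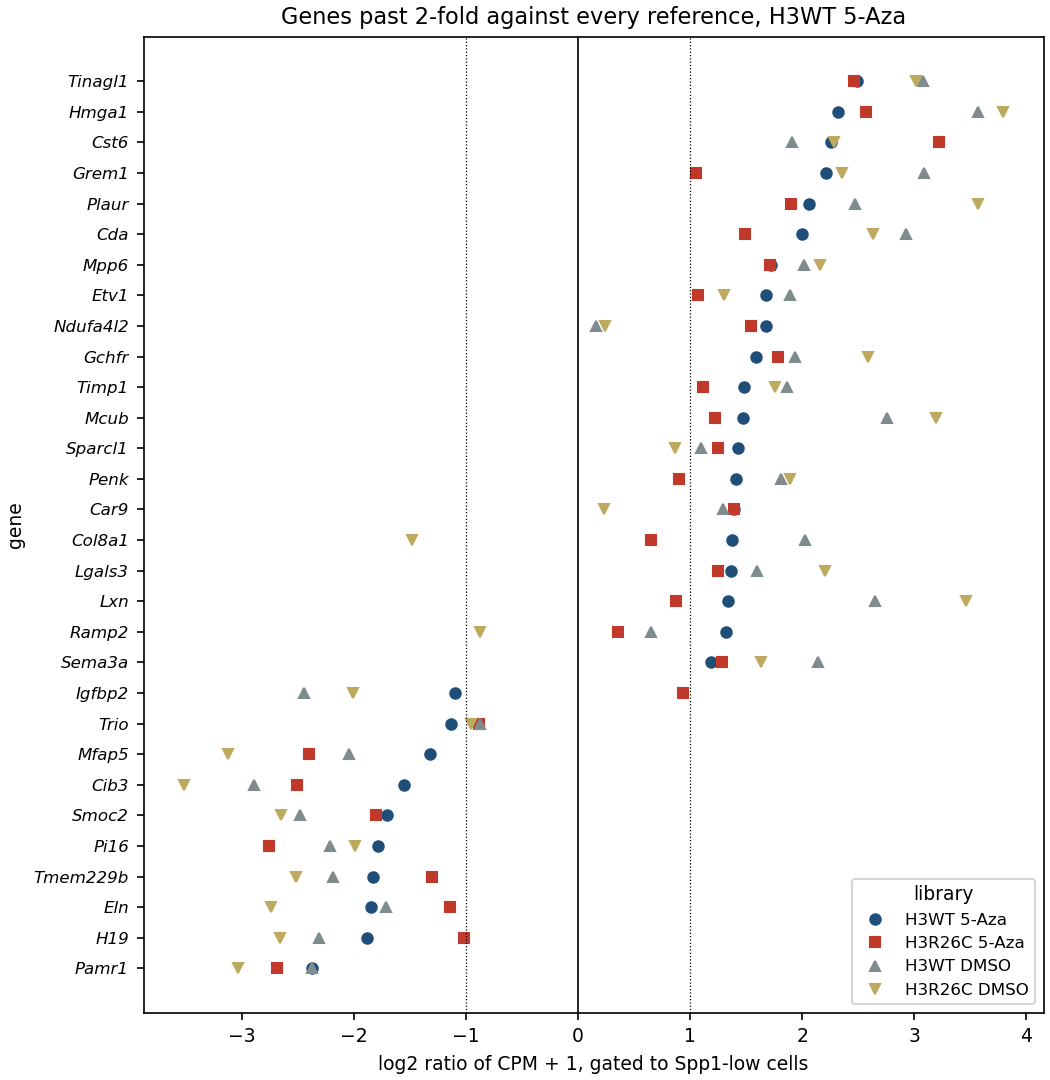
Log2 ratio of CPM plus 1 between gated and Spp1-low cells in each of the 4 libraries, for the 20 higher and 10 lower genes that passed 2-fold against every reference in H3WT 5-Aza; dotted lines mark 2-fold. Tinagl1 and Hmga1 lie right of 2-fold in all 4 libraries, and Ndufa4l2 only in the 5-Aza libraries.

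The levels of 10 of these genes are described along Spp1 among Ly6a-rich cells. The genes had been picked for a difference between Spp1-rich and Spp1-low cells, largely of the same cells, so the order of their levels is no further evidence of it. Cells with at least 10 UMIs of Ly6a were placed in classes of 0, 1, 2 to 3, 4 to 7 and 8 or more UMIs of Spp1 per 5000, with 1421, 350, 301, 228 and 243 cells. Tinagl1 stood at 13.9, 19.2, 35.1, 45.3 and 65.5 CPM along these classes, and Grem1 at 41.7, 60.8, 111, 147 and 191 CPM. Both had their lowest level in the first class and their highest in the last. Smoc2 stood at 915, 595, 422, 294 and 203 CPM, and Mfap5 at 455, 291, 230, 149 and 110 CPM. Both had the opposite order, while Timp1 and Pi16 each broke the order once. The summed level of the interferon-stimulated list was 2696 CPM in the first class and 2546 CPM in the last. Median depth grew from 13788 to 18183 UMIs along the classes, and its part in these levels was not tested.

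**Figure D3:**
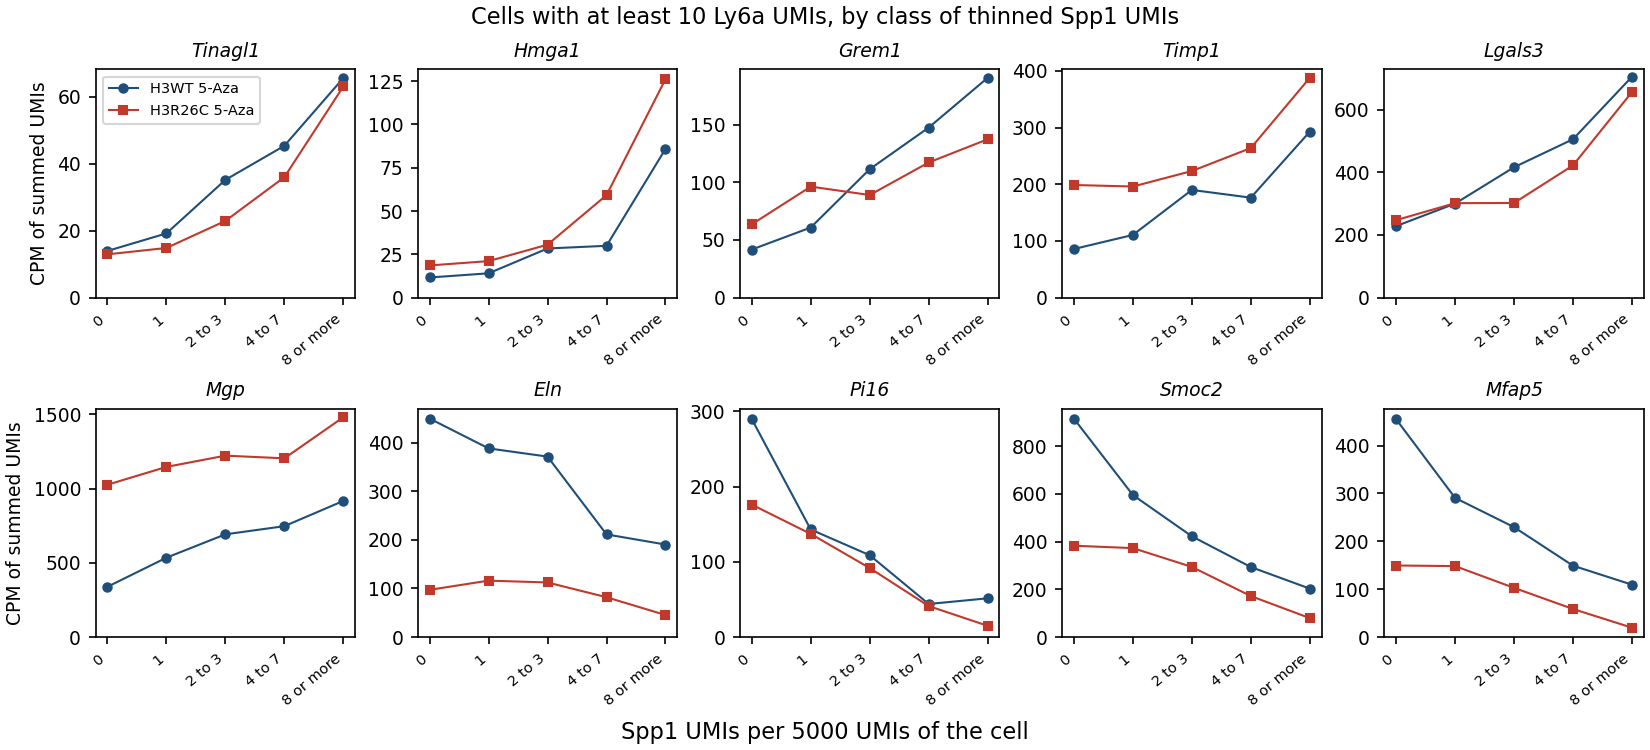
Level in CPM of summed UMIs of 10 genes in Ly6a-rich cells, by class of Spp1 UMIs per 5000 UMIs, in H3WT 5-Aza and H3R26C 5-Aza. In H3WT Tinagl1 lies at 13.9 CPM in the first class and 65.5 CPM in the last, and Smoc2 at 915 and 203 CPM.

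By the naming rule, which took the largest ratios among genes with at least 50 CPM, the 14 highest were Tinagl1, Hmga1, Grem1, Mpp6, Ndufa4l2 and the proliferation genes Tk1, Ube2c, Birc5, Cenpa, Mki67, Pttg1, Cdk1, Pclaf and Racgap1. All 14 were at least 2-fold higher in H3R26C 5-Aza as well, and 13 in each DMSO library, Ndufa4l2 being the exception. The shares over all genes compared were 2.58% in H3R26C 5-Aza, 5.04% in H3WT DMSO and 6.57% in H3R26C DMSO. With depth weighting the 9 proliferation genes were all under 2-fold in H3WT 5-Aza, with Ube2c at a log2 ratio of 0.23 and Cenpa, the highest of them, at 0.66. The 10 lowest were Cfd and the muscle genes Myog, Neb, Mymk, Mybph, Myh3, Tnnc2, Mylpf, Acta1 and Tnni2. Of these 10, 8 were at least 2-fold lower in H3R26C 5-Aza and 1 in each DMSO library, where 6 (H3WT) and 7 (H3R26C) had ratios below 0. The shares of all genes lower there were 2.75% in H3R26C 5-Aza, 2.16% in H3WT DMSO and 5.09% in H3R26C DMSO. Only 1 of the 10 stayed 2-fold lower against Ly6a-rich Spp1-low cells.

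A list of 7 genes held Cd34, Hmga2 and Pdgfra, named as stem cell markers in the study, Plac8 and Enpp2, named there as adipogenic markers, besides Msln and Hopx. Of these, 5 could be compared, and 2, Hmga2 and Hopx, were higher and none lower in gated cells than in Spp1-low cells. Both reached 20 CPM in gated cells alone, so this count is a description. Without cycling cells 1 of 4 was higher, and with depth weighting 3 of 5. The list was chosen on these samples, so its direction is not independent evidence. Against Spp1-rich cells with at most 1 UMI of Ly6a, where 1.12% of genes were higher in the gate and 1.87% lower, none of 5 was higher and Enpp2 was lower. The median log2 ratio there was -0.52, with summed levels of 366 CPM in the gate and 599 CPM in those cells. Hmga2, a chromatin protein of the same family as Hmga1, stood at 23.6 CPM in gated and 1.40 CPM in Spp1-low cells of H3WT 5-Aza, at 66.8 and 11.1 in H3R26C 5-Aza, at 49.3 and 0.712 in H3WT DMSO and at 75.1 and 2.64 in H3R26C DMSO. Gated cells were thus the higher in all 4 libraries. Hopx stood at 33.8 and 13.1 CPM in H3WT 5-Aza. Plac8 and Enpp2, which encodes autotaxin, were within 2-fold at 116 against 77.0 CPM and 78.9 against 65.2 CPM.

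Messages of the cell cycle were more abundant in gated cells, but this moved with depth. Of the 37 genes compared in a list of 52 G2/M genes, 24 were at least 2-fold higher and none lower, with a median log2 ratio of 1.30. Of 23 S phase genes compared, 9 were higher and none lower (median 0.84), but with depth weighting none was higher and the median was 0.30. Between the Spp1-low cells of both 5-Aza libraries, 21 G2/M and 13 S phase genes could be compared. Other members of the 37 and 23 thus reached 20 CPM through gated cells alone and could only be higher. These counts are therefore a description. Without cycling cells 9 G2/M genes were compared and none was higher. Ube2c, which passes ubiquitin to targets of the anaphase-promoting complex, stood at 133 CPM in gated and 35.7 CPM in Spp1-low cells. Birc5, the chromosomal passenger protein survivin, stood at 134 and 38.1 CPM, and Cdk1, the mitotic kinase, at 76.4 and 23.7 CPM. Cells with at least 3 UMIs of Mki67, Top2a, Cdk1 and Birc5 together were 22.6% of gated and 4.27% of Spp1-low cells, and after thinning 16.1% and 3.44%. Against Ly6a-rich Spp1-low cells 13 of the 37 G2/M genes were higher, with a median of 0.91. With Spp1-low cells weighted to the depth of the gated cells, none of the 37 genes reached 2-fold and the median was 0.09. Within 10 depth classes the gated cells had the higher share of cycling cells in 10 and the higher summed G2/M level in 8. In the deepest class the shares were 47.3% of 55 gated and 19.4% of 31 Spp1-low cells. Muscle-marker cells were 3.64% of these gated and 41.9% of these Spp1-low cells, and 3.70% and 20.7% in the class before it. The depth weighting drew on these Spp1-low cells too. The summed G2/M level in that class was 4840 CPM in gated and 3919 CPM in Spp1-low cells. The G2/M result thus depended on the weighting, and the share of cycling cells did not change order in these classes. Hmga1, Tinagl1, Grem1 and Timp1 were higher in gated cells in all 10 depth classes, and Eln was lower in all 10.

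**Figure D4:**
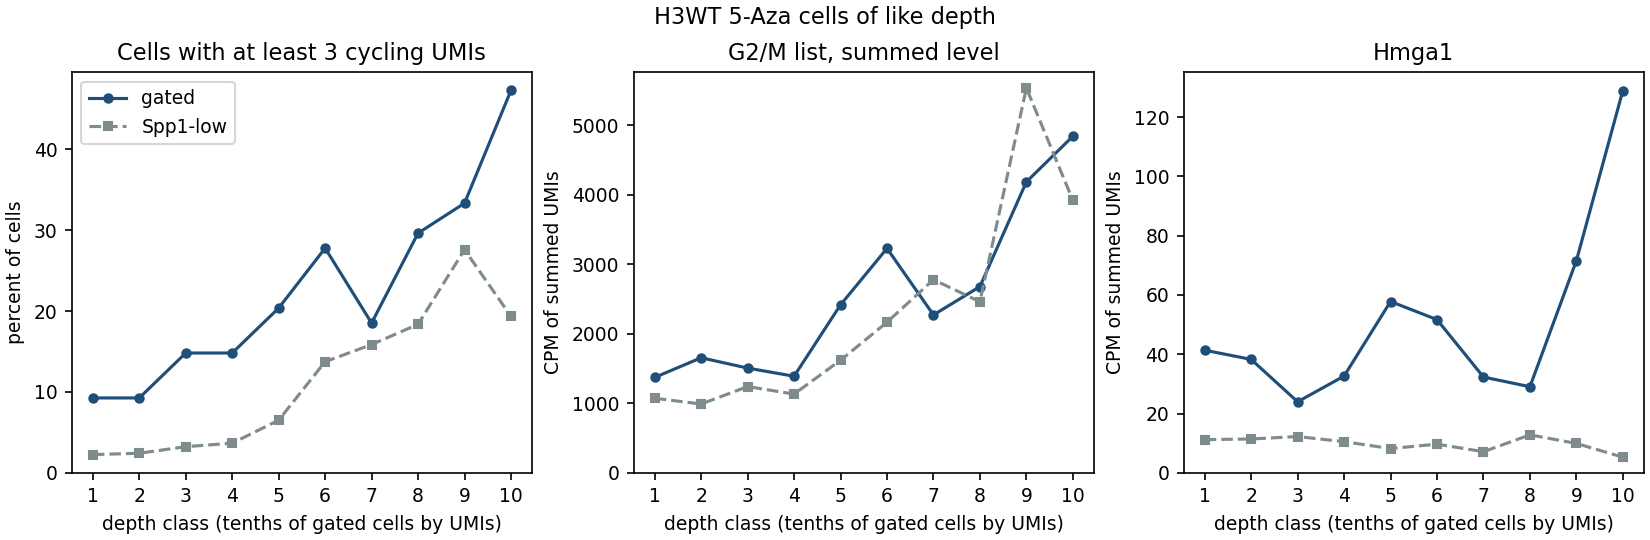
Share of cycling cells, summed G2/M level and Hmga1 level in gated and Spp1-low H3WT 5-Aza cells in 10 classes of UMIs per cell, set so that each holds 54 or 55 gated cells. The cycling share and Hmga1 are higher in gated cells in all 10 classes and the G2/M level in 8.

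Promoters of the G2/M genes are shown because these genes moved together. CCAAT, read on both strands as CCAAT or ATTGG, is the box bound by the factor NF-Y, and TTTGAA, or TTCAAA on the other strand, is the cell cycle homology element. Within 250 bases upstream of RefSeq starts (GRCm38.p6), 35 of the 46 list genes that matched held CCAAT (76.1%), against 37.5% of 27025 genes with a promoter. TTTGAA was held by 20 of the 46 (43.5%), against 18.3%. A match is a description of the letters and not a bound site. The last 120 bases before the start are printed for Ube2c (chr2:164769809-164769928, plus strand) and Cdk1 (chr10:69352913-69353032, minus strand), with both motifs in capitals. These 2 were chosen because they hold both motifs. The same stretch of Birc5 held neither motif, and that of Cenpa held 2 of CCAAT and 0 of TTTGAA.
Ube2c: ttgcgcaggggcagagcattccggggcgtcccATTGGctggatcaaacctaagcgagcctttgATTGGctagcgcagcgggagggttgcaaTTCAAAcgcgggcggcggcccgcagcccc
Cdk1: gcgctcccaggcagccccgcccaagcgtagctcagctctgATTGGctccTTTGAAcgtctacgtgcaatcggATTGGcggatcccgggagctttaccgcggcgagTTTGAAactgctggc

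CpG pairs, the sites that DNA methyltransferases modify, are shown for Spp1 and for Hmga1, since the cells had received an inhibitor of these enzymes. Methylation was not measured in these libraries. The 250 bases before the first start of Spp1 held 3 CpG pairs and those of Hmga1 held 34. For medians, each gene was counted at its start with the most pairs, which gives 3 for Spp1 and 35 for Hmga1. The median was 18 over the 6056 matched genes that were compared between any 2 cell groups. It was 6 over all 27025 genes with a promoter. The last 120 bases are printed for Spp1 (chr5:104434991-104435110, plus strand) and Hmga1 (chr17:27556454-27556573, plus strand), with CpG pairs in capitals.
Spp1: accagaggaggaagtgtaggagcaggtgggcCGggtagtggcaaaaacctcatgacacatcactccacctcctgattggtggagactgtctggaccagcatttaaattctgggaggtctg
Hmga1: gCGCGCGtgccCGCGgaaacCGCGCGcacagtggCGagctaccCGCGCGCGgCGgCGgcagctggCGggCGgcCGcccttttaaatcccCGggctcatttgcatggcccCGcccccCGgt

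Markers of skeletal muscle were at least 2-fold lower in gated cells than in Spp1-low cells, but within 2-fold of Ly6a-rich Spp1-low cells. All 18 compared of 20 muscle markers were at least 2-fold lower, where 1.31% of all genes compared were lower. Only 10 of the 20 could be compared with Ly6a-rich Spp1-low cells. Others of the 18 thus reached 20 CPM through Spp1-low cells alone and could only be lower, so the count is a description. The list summed to 636 CPM in gated and 4032 CPM in Spp1-low cells. The most abundant in gated cells was Ttn, titin, at 174 CPM, and Myf5, a myogenic factor, was at 0. Acta1, skeletal actin, stood at 113 and 754 CPM, and Mylpf, a fast myosin light chain, stood at 74.5 and 511 CPM. Cells with at least 3 muscle markers at 5 or more UMIs were 2.59% of gated and 6.41% of Spp1-low cells. Against Ly6a-rich Spp1-low cells, 2.76% of which carried these markers, none of 10 compared muscle markers was lower by 2-fold, although all 10 had ratios below 0, with a median log2 ratio of -0.50 (summed level 838 CPM in that reference). Of 9 adipocyte markers compared, 6 were also lower, with summed levels of 272 and 666 CPM. With depth weighting the median log2 ratio of the 18 muscle markers went from -2.64 to -3.84. That of the adipocyte markers went from -1.60 to -3.01, with 10 of 12 lower, where 143 of all 6742 genes were lower. Against Ly6a-rich Spp1-low cells 1 of 6 adipocyte markers was lower. The median log2 ratio there was -0.17, with a summed level of 318 CPM in that reference. Others of the 9 and of the 12 thus reached 20 CPM through Spp1-low cells alone and could only be lower. These adipocyte counts are therefore a description. Cells with a UMI of at least 3 adipocyte markers, a looser rule, were 48.4% of gated and 24.3% of Spp1-low cells, the opposite order to the summed levels. This rule used raw UMIs in groups with medians of 18136 and 12067 UMIs, and the part of depth in it was not tested. Cfd, the fat-cell protease adipsin, stood at 0.296 and 68.4 CPM, while Fabp4, the most abundant of that list, stood at 75.8 CPM in gated cells and Cidec and Retn were at 0. No endothelial or blood marker reached 20 CPM, and their sums in gated cells were 5.13 and 15.3 CPM, with Kdr, Adgre1 and Cd3e at 0.

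The proposed markers differed in how far they set the gated cells apart. Mgp stood at 852 CPM in gated and 643 CPM in Spp1-low cells, a log2 ratio of 0.41, and at 324 CPM in Ly6a-rich Spp1-low cells, a ratio of 1.39. It was highest, at 2368 CPM, in Spp1-rich cells with at most 1 UMI of Ly6a, a ratio of -1.47. In the other libraries Mgp stood at 1426 CPM in gated and 1138 CPM in Spp1-low cells of H3R26C 5-Aza, at 193 and 166 in H3WT DMSO and at 203 and 334 in H3R26C DMSO. Gated cells were thus the lower in H3R26C DMSO. Ifi27l2a stood at 106 and 52.5 CPM in H3WT 5-Aza, at 879 and 546 CPM in H3R26C 5-Aza (log2 ratio 0.69), at 94.0 and 13.3 CPM in H3WT DMSO and at 229 and 30.8 CPM in H3R26C DMSO. Ifi27l2a was the single interferon-stimulated gene of 16 compared that reached 2-fold, and the median of the list was 0.04. Its ratio lay at the limit itself, and was below it with depth weighting (0.50), against Ly6a-rich Spp1-low cells (0.93) and with the thinned gate (0.78). It was above the limit without cycling cells (1.06), with 20 UMIs of each gene (1.23), in the weighted reference without cycling, muscle-marker and adipocyte-marker cells (1.17), and without muscle-marker cells and cells with a UMI of 3 adipocyte markers (1.75). None of 17 class I antigen presentation genes did (median 0.19). Mgp was higher in gated than in Spp1-low cells in all 10 depth classes of H3WT 5-Aza, and its ratio was 0.69 with depth weighting. The name Ly6a and Spp1 high held by construction, and the place of Mgp depended on the reference.

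Genes of matrix and signalling were mostly within 2-fold of Spp1-low cells. Over all genes compared, 1.88% were higher and 1.31% lower. Without cycling cells 48 of 6590 were higher and 80 lower, and with depth weighting 50 of 6742 and 143. In the weighted reference without cycling, muscle-marker and adipocyte-marker cells 42 of 6520 were higher and 20 lower. Of 18 elastic fibre genes compared, 4 were lower and none higher (median -0.53), namely Eln, Mfap5, the microfibril gene Mfap4 and the latent TGF-beta binding protein Ltbp4. With depth weighting 2 of 18 were lower (median -0.24). Of 19 collagens Col8a1 and Col2a1 were higher and none lower. Without cycling cells 18 were compared and Col8a1 was higher, while Col2a1 was under 20 CPM in both groups and was not compared. Of 9 small leucine-rich proteoglycans none passed in either direction. Among 5 compared receptors of osteopontin, Cd44, a hyaluronan and osteopontin receptor, was higher at 37.1 and 17.4 CPM, while the integrin subunit Itgav stood at 49.99 and 43.7 CPM. None of the 5 reached 2-fold without cycling cells or with depth weighting. Of 18 immediate early genes compared, from a list of AP-1 subunits and others such as Egr1 and Klf2, Fosl1 and Klf2 were higher and none lower, with log2 ratios of 2.82 and 1.10, and Fos stood at 287 and 552 CPM. Without cycling cells 1 of 17 was higher, with depth weighting 1 of 18, and in the weighted reference without cycling, muscle-marker and adipocyte-marker cells 0 of 17. A gene under 20 CPM in both groups was not compared, so a lost call need not mean a smaller ratio. Cd44, Col2a1 and Fosl1 were under 20 CPM in Spp1-low cells. They were compared through gated cells alone and could only be higher, so these calls are a description. Fosl1, the AP-1 subunit Fra-1, stood at 31.4 and 3.59 CPM, and at 62.4 and 12.6 CPM in H3R26C 5-Aza. Malat1, a nuclear-retained RNA, stood at 6597 and 13061 CPM, and mitochondrial genes took 2.51% and 3.13% of UMIs.

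In H3R26C 5-Aza the same gate was compared with Spp1-low cells of that library. There 2.58% of genes were higher and 2.75% lower than in its 671 Spp1-low cells. Of the 126 genes higher in H3WT 5-Aza, 88 were also at least 2-fold higher in H3R26C 5-Aza, which is 69.8% of them and 73.9% of the 119 genes higher there among those compared in H3WT. Of the 88 lower genes, 62 were lower in both, 70.5% of the H3WT set and 33.3% of the other. In H3WT DMSO 5.04% of genes were higher and 2.16% lower, and in H3R26C DMSO 6.57% and 5.09%. Of the 126 higher genes 116 were higher in H3WT DMSO and 111 in H3R26C DMSO, which are 40.6% and 35.7% of the genes higher there among those compared in H3WT 5-Aza. Of the 88 lower genes 39 were lower in H3WT DMSO (44.3%) and 46 in H3R26C DMSO (52.3%), which are 26% and 12.7% of the genes lower there. Their gated cells were also the most cycling after thinning, 27.9% and 40.1%. Depth moved with these differences as well. Gated and Spp1-low cells had medians of 35185.5 and 21306 UMIs in H3WT DMSO and of 24791 and 16008 in H3R26C DMSO. Over 40000 UMIs, where doublets may lie, were 79 of 222 gated cells in H3WT DMSO (35.6%) and 20 of 369 in H3R26C DMSO (5.42%). The part of depth or doublets in the DMSO differences was not tested.

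Gated cells of H3WT differed from gated cells of H3R26C in interferon-stimulated and immediate early genes and in Crabp1. Of 6684 genes compared, 121 were higher in H3WT (1.81%) and 174 were lower (2.6%). The level of Spp1 was 1871 CPM in gated cells of H3WT, against 6453 CPM in those of H3R26C, and the barcodes under 1000 UMIs described above differed in the same direction. Crabp1, a cytosolic retinoic acid binding protein, stood at 5.23 CPM in H3WT gated cells, against 260 CPM in the others, a log2 ratio of -5.39. Of 26 interferon-stimulated genes compared, 18 were lower in H3WT and none higher, with a median of -1.58. Within H3WT 5-Aza 16 of the list could be compared. The others thus reached 20 CPM through H3R26C alone and could only be lower, so the count is a description. Ifi27l2a stood at 106 and 879 CPM, and Irf7, a transcription factor of the interferon response, at 7.59 and 67.1 CPM. Ly6e, of the same family as Ly6a, stood at 164 and 1230 CPM. On the other side, 10 of 17 immediate early genes were higher in H3WT and none lower, and Fos stood at 287 and 40.9 CPM. No gene of 38 compared in the G2/M list reached 2-fold in either direction.

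The interferon and immediate early gene differences were present in Spp1-low cells as well. Between the Spp1-low cells of the libraries, 0.932% of genes were higher and 1.95% lower in H3WT. The interferon list had 18 of 26 genes lower there too, with a median of -1.64, and the immediate early list 9 of 17 higher. Here as well, interferon genes outside the 16 compared within H3WT 5-Aza reached 20 CPM through H3R26C alone. Fos had a log2 ratio of 2.78 between gated and 2.75 between Spp1-low cells, and Crabp1 -5.39 and -4.28. Hopx, a homeodomain-only cofactor, had -3.03 in gated and -1.30 in Spp1-low cells. Colec10, a collectin, had 2.77 in gated cells and pointed the same way in Spp1-low cells, where it stood at 173 CPM (H3WT) against 86.2 CPM (H3R26C). Weighting H3R26C cells to the Spp1 counts of H3WT gated cells left 65 genes higher and 150 lower.

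**Figure D5:**
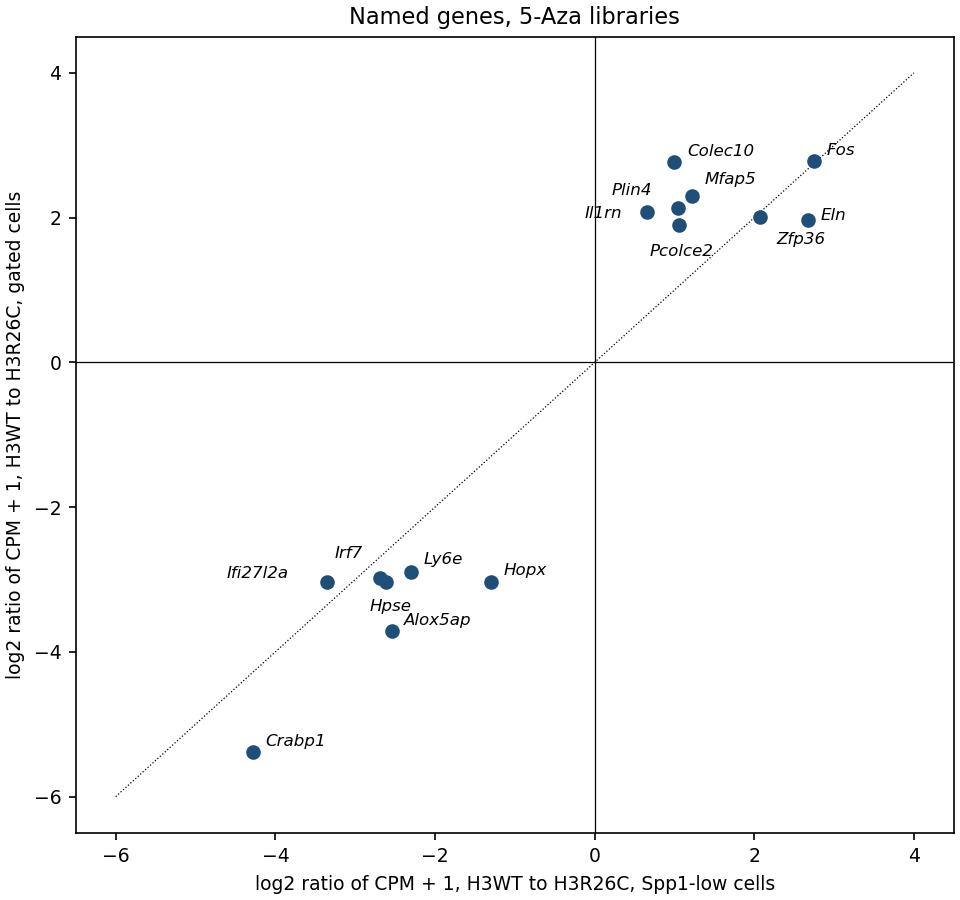
Log2 ratio of CPM plus 1 between H3WT 5-Aza and H3R26C 5-Aza for 15 named genes, in Spp1-low cells (horizontal) and gated cells (vertical), with the line of equal values dotted. All 15 point the same way in both groups of cells, and Fos lies on the line at 2.75 and 2.78.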

How the data were processed

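The 4 libraries described above were analysed. The authors made the deposited UMI counts with Cell Ranger (6.1.0 in the file headers) on mm10; these are unnormalized whole numbers, and Seurat 4 is named in the submitters' notes. Cells with at least 5000 UMIs, 1500 genes and at most 20% mitochondrial UMIs were kept. No doublets were removed or called here; 2 gated H3WT 5-Aza cells exceeded 40000 UMIs, as did 79 in H3WT DMSO, 20 in H3R26C DMSO and 9 in H3R26C 5-Aza. Counts were summed over each cell group, scaled to CPM, and compared as log2 ratios with 1 CPM added, for genes with at least 20 CPM in either group. Intervals are exact at 95%. Genes were named by size of ratio: 14 higher and 10 lower for gated against Spp1-low cells with at least 50 CPM, and 8 each way between libraries, of which 1 is not reported here, besides the gate genes, proposed markers and list members; genes past every reference were picked after their values were seen. The members and lists were chosen with earlier results of these data known. The method was tested on simulated data. Gene positions were from GENCODE M21. Python 3.11.15, numpy 2.4.6, scipy 1.17.1 and pandas 2.3.3 were used.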

Additional observations from a re-analysis of the deposited data

Results flagged for a closer look

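Il1rn, the interleukin-1 receptor antagonist, pointed opposite ways in the 5-Aza libraries: its log2 ratio of gated to Spp1-low cells was 0.89 in H3WT and -0.53 in H3R26C. Plin4, a lipid droplet protein, did likewise, with 0.24 and -0.85. The share of Ly6a-rich cells among Spp1-rich cells minus that among Spp1-low cells was -14.5 percentage points in H3WT 5-Aza and -13.3 in H3R26C 5-Aza, but 9.72 in H3WT DMSO and 13.0 in H3R26C DMSO. After thinning the DMSO values were -2.49 and -1.89. None of these differences between libraries was tested, since each condition has 1 library.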

How the results depend on the processing

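No paired analysis was possible because the 4 conditions were sequenced as single libraries. The percent of H3WT 5-Aza cells in the gate and the ratio of H3R26C to H3WT shares were 18.99% and 3.26 with 5 UMIs of each gene, 2.79% and 7.96 with 20 UMIs, and 7.49% and 5.51 after thinning; the percent was 11.2% with the stricter and 6.65% with the looser cell filter. Against Spp1-low cells, 71 genes were higher with the thinned gate, 50 with depth weighting, 48 without cycling cells, 266 from 5 CPM and 28 from 100 CPM. Lower genes numbered 40 against Ly6a-rich Spp1-low cells, 143 with depth weighting, 202 from 5 CPM and 28 from 100 CPM. The 1 interferon-stimulated gene past 2-fold became 0 with the 5 UMI and thinned gates, against Ly6a-rich cells, with depth weighting, with 5 CPM added, and with scaling outside mitochondrial, ribosomal and gate genes. Between H3WT and H3R26C gated cells, 214 genes were higher and 401 lower from 5 CPM, and 41 and 46 from 100 CPM. Leaving out muscle-marker cells and all cells with a UMI of 3 adipocyte markers, which were 262 of the 541 gated cells, gave 169 higher and 64 lower genes. In alternatives added after the data were seen, leaving out cells with 3 muscle or 3 adipocyte markers at 5 UMIs gave 53 lower genes; adding depth weighting and leaving out cycling cells gave 42 higher and 20 lower; and Spp1 weighting gave 65 genes higher in H3WT. Named muscle genes changed sign: Mybph to 0.093 against Ly6a-rich cells, and in the combined alternative Neb to 0.066, Mymk to 0.16, Myh3 to 0.036, Mylpf to 0.027, Acta1 to 0.051 and the adipocyte gene Cfd to 0.19; muscle-marker and adipocyte-marker cells are left out there by construction. The other 695 of 702 single-gene values kept their direction.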

Other observations

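Some other gene groups of the gated H3WT 5-Aza cells lay close to Spp1-low cells, and some did not. Of 6 Ly6 family genes compared besides Ly6a, 2 were higher (median 0.49), where 1.88% of all genes compared were higher. Some of the 6 entered through gated cells alone, and the gate itself chose on Ly6a. Against Ly6a-rich Spp1-low cells 2 of 6 were higher and 3 had ratios above 0, with a median of 0.15. Their summed level was 491 CPM in gated cells and 599 CPM in that reference. Lower were 1 of 5 nuclear-retained RNAs (median -0.94), 1 of 11 CCN and Yap target genes (-0.49) and 2 of 4 smooth muscle markers (-0.95). In the weighted reference without cycling, muscle-marker and adipocyte-marker cells, no gene of these last lists was lower. Nor was any of them against Ly6a-rich Spp1-low cells. There 2 smooth muscle markers were compared, with a median of 0.62 and summed levels of 366 CPM in gated and 232 CPM in reference cells. The others of the 4 reached 20 CPM through Spp1-low cells alone and could only be lower. Of 8 heat shock genes and 11 genes of p53 and the CDK inhibitors compared, none passed 2-fold, with medians of 0.02 and -0.04. Of 13 complement genes compared, 2 were lower and none higher, with a median of -0.23, where 1.31% of all genes compared were lower. Sox9, a transcription factor of cartilage progenitors, stood at 327 CPM in gated and 285 CPM in Spp1-low cells, and at 501 and 340 CPM in H3WT DMSO. Col2a1, a cartilage collagen, stood at 27.8 and 8.66 CPM, and at 117 and 20.2 CPM in H3R26C DMSO. Once cycling cells were left out of H3WT 5-Aza it was under 20 CPM in both groups, so it was not compared there. Phex, an endopeptidase of bone-forming cells, was on the other side at 97.6 and 186 CPM, and the osteoblast genes Sp7 and Ibsp were at 0 in gated cells.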
